A study of Arabidopsis thaliana with 12 samples.

Results

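In Arabidopsis seedlings, 126 loci differed one way between sco3 and Col-0 and the same way between sco3phyb and phyb, and their transcript levels are described here. They were chosen from measured values. A probe set qualified if its annotation gave 1 gene by a locus name alone, outside the loci starting AT3G1 or AT3G2. The mean log2 signal then had to differ by at least 0.6 in both comparisons in the same direction, with no overlap between the 3 arrays of each genotype. Of 11016 eligible probe sets, for 10890 loci, 126 met the rule (1.14%), 50 of them higher (0.454%) and 76 lower (0.69%) in the sco3-carrying genotypes. The annotation left 22746 probe sets in all after controls, and 367 of these met the numeric conditions alone.

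The arrays were Affymetrix ATH1 arrays, which measure each transcript with a set of short probes, in whole seedlings that were 4 days old. The genotypes were sco3 and the double mutant sco3phyb, the phyb single mutant, and Col-0 as the reference line, with 3 labelled biological replicates of each. Seedlings grew on Murashige Skoog medium with 0.8% agar at 21 °C, with 16 hours of light and 8 hours of dark. The labels name the genotypes without the alleles, the number of seedlings per sample or any batch. The p-values below measure the spread between the labelled replicates, and the number of arrays limits the precision.

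SCO3 (SNOWY COTYLEDON 3, locus AT3G19570) encodes a QWRF domain protein found at peroxisomes that is needed for normal chloroplast development in cotyledons. PHYB (locus AT2G18790) encodes phytochrome B, a receptor that reports red and far-red light and restrains stem elongation in light-grown seedlings. A seedling at this age is switching from stored reserves to photosynthesis while its root grows. Neither gene was named for a probe set in the annotation, so the transcripts that would check the labels were not analysed here.

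All values are log2 RMA signals, on which a difference of 1 is a doubling. Array medians lay between 4.70 and 4.74 on the phyb and sco3phyb arrays and between 4.53 and 4.61 on the sco3 and Col-0 arrays, a mean offset of 0.16. With each array centred on its median, the rule gave 67 higher and 65 lower probe sets, so the larger number of lower loci depends on this setting. One array stood apart. Col-0 replicate 3 correlated with the other Col-0 arrays at a mean of 0.978, against 0.986 for each of these, over all probe sets. The median SD of the 126 loci was 0.16 in sco3, 0.48 in Col-0, 0.16 in sco3phyb and 0.22 in phyb (n = 3 arrays each). Col-0 replicate 3 lay farthest from sco3 of the Col-0 arrays at 63 of the 76 lower loci and at 44 of the 50 higher loci. Without it, 91 probe sets met the rule, and 76 of the 126 loci were among them (28 higher and 48 lower). All 126 loci kept the sign of the difference without that array, but the median of sco3 minus Col-0 moved to 0.63 in the higher set and -0.67 in the lower set.

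The 50 higher loci had a median difference of 0.86 in sco3 over Col-0 (range 0.61 to 2.03) and of 0.97 in sco3phyb over phyb (range 0.62 to 2.60). The 76 lower loci had medians of -0.91 (range -1.98 to -0.62) and -0.90 (range -5.00 to -0.61). Over all probe sets the medians of these differences were 0.02 and 0.04. The rule fixed the direction and the minimum size, so these values describe the loci and carry no test. In each direction 12 loci differed by at least 1, a doubling or more, in both comparisons.

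**Figure D1:**
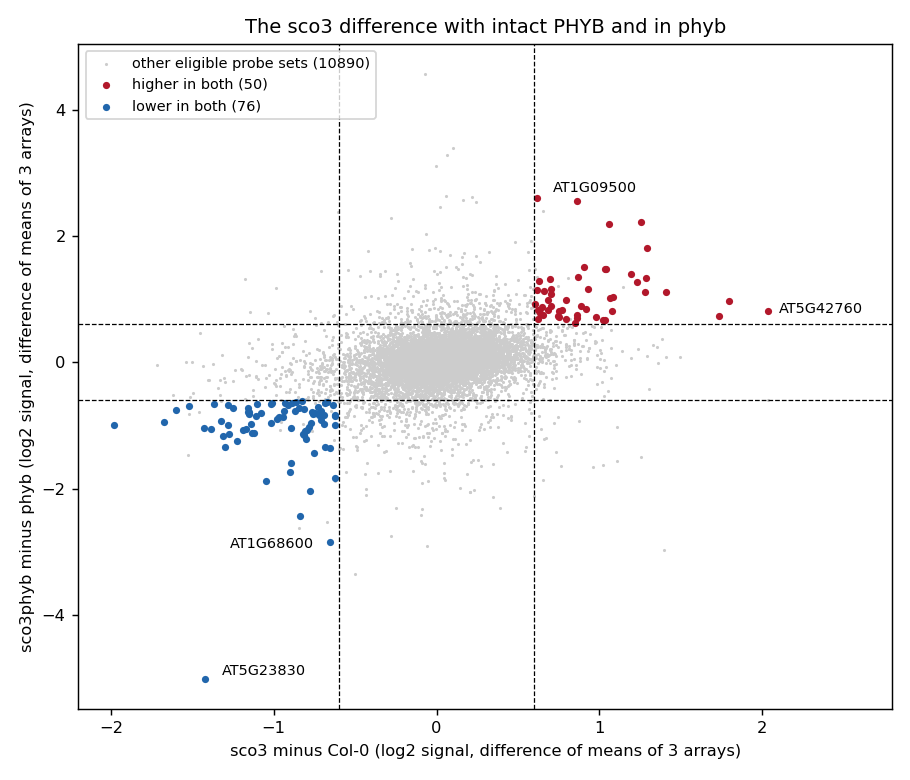
Difference of mean log2 signal between sco3phyb and phyb (vertical axis) against that between sco3 and Col-0 (horizontal axis) for the eligible probe sets, each point 1 probe set and each mean over 3 arrays. Dashed lines mark 0.6 and -0.6; the 50 higher loci lie at the upper right, the 76 lower loci at the lower left, and grey points beyond both lines either had overlapping arrays or differed in opposite directions.

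Each condition taken alone was met by more loci. The comparison of sco3 with Col-0 was passed by 500 eligible probe sets, of which 25.2% are among the 126. The comparison of sco3phyb with phyb was passed by 904, of which 13.9% are. Both were passed by 145, and 19 of these differed in opposite directions. Just inside the threshold lay AT1G10660 (0.61 in sco3 over Col-0, 0.92 in sco3phyb over phyb), AT5G40860 (-0.83 and -0.61) and AT1G09500 (0.61 and 2.60). Just outside lay AT1G33700 (-0.65 and -0.598), AT5G17660 (0.597 and 0.61) and AT1G47400 (-0.84 and -0.596). In sco3 minus Col-0, AT1G10660 was at 0.49 and AT5G40860 at -0.51 without Col-0 replicate 3. The edge of the set is thus a matter of hundredths of a log2 unit, well under the SD between replicates.

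Among the higher loci, glutaredoxins led. Glutaredoxins are small proteins that use glutathione to reduce disulfides, and the CC type is found in land plants, where some members act with transcription factors. The tables used here give a name beyond a clone name to only 2 of the 126 loci, so the family roles in the text are background knowledge of each locus. The families were singled out after the values were seen.

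AT3G62950, a CC-type glutaredoxin, had 7.91, 7.88 and 7.79 in sco3, against 6.34, 7.12 and 6.24 in Col-0. In the phyb background it had 5.47, 5.70 and 5.45 in sco3phyb, against 3.74, 3.73 and 3.70 in phyb. No value of a sco3-carrying genotype reached down to its comparison genotype, and the differences were 1.29 and 1.82, or 2.45-fold and 3.52-fold. The 4 genotypes lay in the order sco3, Col-0, sco3phyb, phyb, from high to low, with no overlap between neighbours.

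A run of 4 CC-type glutaredoxin loci on chromosome 4, AT4G15660, AT4G15680, AT4G15690 and AT4G15700, was higher as a block. These loci are consecutive among the eligible genes, and as closely related copies they may share hybridization to each other's probes. AT4G15680 had 7.93, 8.01 and 8.19 in sco3, against 7.08, 7.54 and 5.67 in Col-0, and 6.94, 6.91 and 6.86 in sco3phyb, against 5.45, 5.24 and 6.03 in phyb. AT4G15690 had 7.39, 7.44 and 7.62 in sco3, against 6.65, 7.15 and 5.47 in Col-0, and 6.53, 6.48 and 6.64 in sco3phyb, against 4.18, 4.02 and 4.91 in phyb. In both loci, Col-0 replicate 3 was the lowest Col-0 array by more than 1 log2 unit. The differences of AT4G15680 were 1.28 and 1.33, those of AT4G15690 1.06 and 2.18, those of AT4G15700 1.19 and 1.39 and those of AT4G15660 0.98 and 0.72. Without Col-0 replicate 3 the sco3 minus Col-0 difference of AT4G15680 was 0.74, and the other loci of the run went under the threshold, at 0.58 for AT4G15690, 0.49 for AT4G15700 and 0.52 for AT4G15660.

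Of the 21 CC-type glutaredoxins listed for the comparison, 17 were measured and 5 met the numeric rule as higher, none as lower. All single-gene probe sets met it as higher at a rate of 0.519%. Without Col-0 replicate 3, 2 of the 5 still met it. Over the 17, the median difference was 0.60 in sco3 over Col-0 and 0.32 in sco3phyb over phyb, and 9 were above in both comparisons. In sco3phyb minus phyb, 7 of the 17 were below, the lowest being AT2G47880 at -1.91 and AT3G62960 at -1.37. With Col-0 replicate 3 left out, the middle value of the 17 in sco3 over Col-0 was 0.17, at AT1G28480. AT1G64500, which has a glutaredoxin domain and is not in that family list, was also higher, by 1.04 in sco3 over Col-0 and 0.67 in sco3phyb over phyb.

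**Figure D2:**
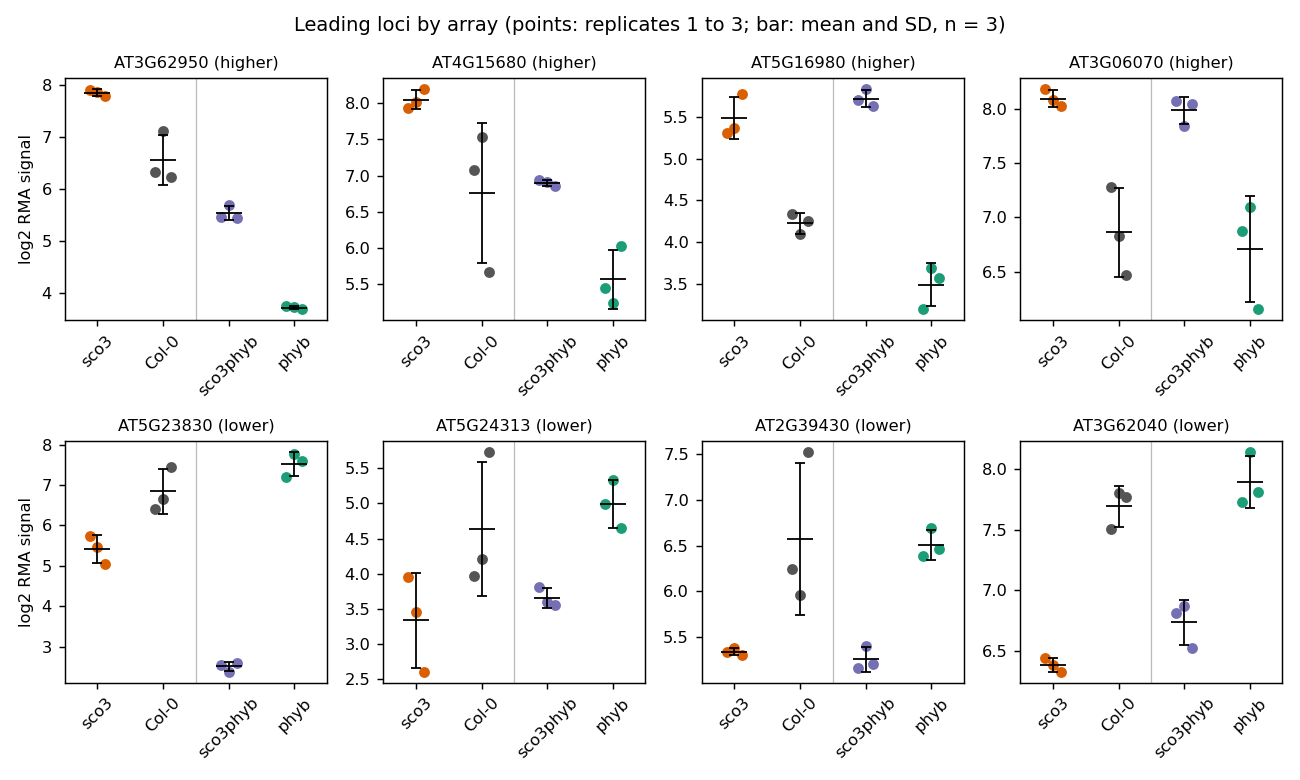
Log2 RMA signal of 8 leading loci on each array, by genotype, with replicates as points and the mean and SD (n = 3) as bars; the top row holds loci higher in sco3 and sco3phyb, and the bottom row loci lower there. The sco3 and sco3phyb points lie on one side of their comparison genotype in every panel, and in AT3G62950 the phyb arrays lie below those of all other genotypes.

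Other leading higher loci belong to unrelated families. AT5G16980, of the zinc-binding dehydrogenase family that includes 2-alkenal reductases, had 5.31, 5.37 and 5.77 in sco3, against 4.34, 4.09 and 4.25 in Col-0. In the phyb background it had 5.70, 5.83 and 5.63 in sco3phyb, against 3.20, 3.70 and 3.57 in phyb. Its differences were 1.25 and 2.23, and the sco3 and sco3phyb arrays all lay above those of Col-0 and phyb. Its locus also appears in a probe set of several genes, which was not used.

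AT3G06070, for which no role is given here, had 8.18, 8.08 and 8.03 in sco3, against 7.28, 6.83 and 6.47 in Col-0, and 8.07, 7.85 and 8.05 in sco3phyb, against 6.88, 7.09 and 6.16 in phyb. The sco3 and sco3phyb arrays lay together, as did those of Col-0 and phyb. AT1G55960, a START-domain lipid-binding protein, was higher by 1.41 in sco3 over Col-0 and by 1.12 in sco3phyb over phyb, and AT5G54170, of the same family, by 0.70 and 1.08. At AT5G54170, sco3 over Col-0 was 0.49, under the threshold, without Col-0 replicate 3. AT3G04650, an FAD/NAD(P)-binding oxidoreductase, was higher by 1.28 and 1.11. The pyruvate kinase family locus AT3G49160 was higher by 1.08 and 1.03 and the MATE efflux transporter AT1G33110 by 1.03 and 1.48. AT2G04795 and AT3G09380, with no role given here, were higher by 1.04 and 1.48 and by 1.07 and 1.02. At AT3G09380 the phyb arrays (2.17, 2.27 and 2.10) and the Col-0 arrays at 2.53 and 2.31 lay below 2.69, the lower quartile of all signals. The sizes of its differences thus involve signals not shown to be above background.

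The largest difference of the set in sco3 over Col-0 was at AT5G42760, of the leucine carboxyl methyltransferase family. It had 7.13, 6.55 and 6.98 in sco3, against 5.74, 4.45 and 4.36 in Col-0, a difference of 2.03. In the phyb background it had 9.06, 8.17 and 8.32 in sco3phyb, against 8.06, 7.59 and 7.49 in phyb, a difference of 0.81. The genotypes did not overlap within either comparison, and the gap between sco3phyb and phyb was narrow.

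The next 3 higher loci were picked after their values were seen, and no list of plastid proteins was counted among the 126. AT5G04810, a pentatricopeptide repeat protein of plastid RNA splicing, was higher by 0.62 in sco3 over Col-0 and 0.68 in sco3phyb over phyb. AT5G57960, a GTP-binding protein of the HflX family, was higher by 0.87 and 0.75, and AT1G06690, an NADP-linked oxidoreductase, by 0.68 and 0.82. Without Col-0 replicate 3 the sco3 minus Col-0 differences of these 3 loci were 0.48, 0.50 and 0.47, under the threshold.

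Among the lower loci, the leading one was AT5G23830, of the MD-2-related lipid recognition family. It had 5.74, 5.45 and 5.06 in sco3, against 6.41, 6.65 and 7.45 in Col-0, a difference of -1.42. It had 2.55, 2.38 and 2.61 in sco3phyb, against 7.18, 7.76 and 7.60 in phyb, a difference of -5.00. The sco3phyb arrays all lay below 2.69, the lower quartile of all signals, and the files give no detection calls, so no fold is given. On the log2 signal scale it is the most unequal pair of differences in the set.

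Dirigent proteins, which steer the coupling of phenolic radicals in lignan and lignin-like polymers, were lower at 4 loci. AT2G39430 had 5.34, 5.38 and 5.31 in sco3, against 6.24, 5.96 and 7.52 in Col-0, and 5.16, 5.41 and 5.21 in sco3phyb, against 6.38, 6.69 and 6.46 in phyb. In AT2G39430 the sco3 and sco3phyb arrays lay together, below every array of the other genotypes. AT4G13580 differed by -1.13 in sco3 minus Col-0 and -1.12 in sco3phyb minus phyb, and had its highest value, 9.27, on Col-0 replicate 3. Without that array sco3 minus Col-0 was -0.76 at AT2G39430 and -0.60 at AT4G13580. The differences of AT2G21100 were -1.25 and -0.73, and those of AT4G11210 -0.63 and -0.84, with -0.52 in sco3 minus Col-0 without that array, under the threshold. Of 25 dirigent genes listed, 15 were measured and 5 met the numeric rule as lower, AT3G13650 of the left-out stretch among them, against 0.883% of all single-gene probe sets. With arrays shifted to a common median or after a further quantile normalization, 3 met it, and 4 did without Col-0 replicate 3. The medians over the 15 were -0.29 in sco3 minus Col-0 and -0.66 in sco3phyb minus phyb. With Col-0 replicate 3 left out, the middle value of the 15 in sco3 minus Col-0 was -0.07, at AT1G22900.

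Class III peroxidases are secreted enzymes that oxidize phenolics in the cell wall, and 5 of them were lower. AT5G66390 (PRX72) had 6.54, 6.40 and 6.44 in sco3, against 7.13, 7.11 and 8.60 in Col-0, and 7.05, 7.05 and 6.86 in sco3phyb, against 7.89, 7.93 and 7.47 in phyb. AT4G26010 had 7.83, 7.85 and 7.25 in sco3, against 8.05, 8.25 and 10.08 in Col-0, and 8.99, 8.76 and 8.59 in sco3phyb, against 9.48, 9.75 and 9.57 in phyb. In both, Col-0 replicate 3 exceeded the other Col-0 arrays by more than 1 log2 unit. AT5G17820, AT1G30870 and AT1G44970 differed by -0.97, -0.94 and -0.77 in sco3 minus Col-0 and by -0.86, -0.86 and -0.96 in sco3phyb minus phyb. With Col-0 replicate 3 left out, the sco3 minus Col-0 differences were -0.66 at AT5G66390, which still met the rule, and -0.51 at AT4G26010, -0.56 at AT5G17820, -0.52 at AT1G30870 and -0.38 at AT1G44970, which did not. Of 73 class III peroxidases listed, 55 were measured and 6 met the numeric rule as lower, with AT3G21770 of the left-out stretch, against 0.883% of all single-gene probe sets, and 2 did without Col-0 replicate 3. The medians over the 55 were -0.31 and -0.12, and 27 were below in both comparisons.

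**Figure D3:**
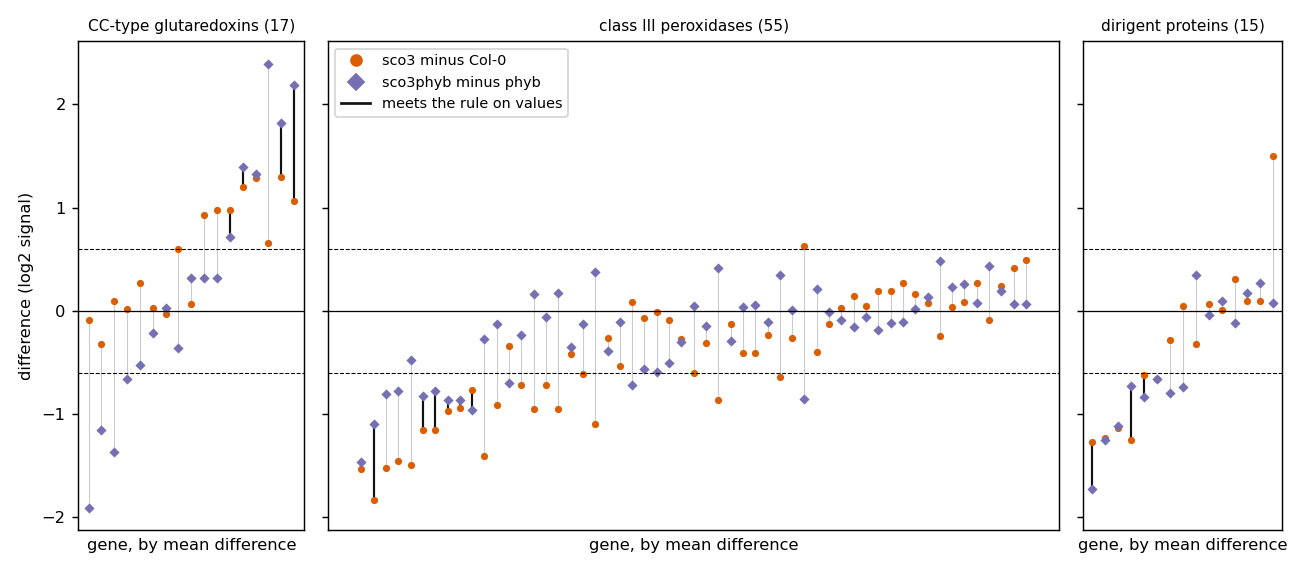
Difference of mean log2 signal for the measured CC-type glutaredoxins (17), class III peroxidases (55) and dirigent proteins (15), with sco3 minus Col-0 as circles and sco3phyb minus phyb as diamonds, each mean over 3 arrays. Black lines join the values of genes that meet the numeric rule and grey lines those of the rest; 5 glutaredoxins meet it above 0.6, and 6 peroxidases and 5 dirigent genes below -0.6, while most family members lie between the dashed lines in at least one comparison.

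Further lower loci, chosen by the naming rule or after their values were seen, follow. AT4G15390, an acyltransferase of the HXXXD family, had 6.15, 6.04 and 5.96 in sco3, against 6.83, 6.94 and 8.54 in Col-0, and 6.61, 6.88 and 6.73 in sco3phyb, against 7.84, 7.79 and 7.76 in phyb. The glycosyl hydrolase family 17 locus AT3G04010 differed by -1.67 in sco3 minus Col-0 and -0.94 in sco3phyb minus phyb, and AT5G04960, of the pectin methylesterase family, by -1.60 and -0.75. AT3G01720, a serine galactosyltransferase that modifies extensins, differed by -1.12 and -1.12, among the 3 most equal loci of the set, with AT3G56290 (0.89 and 0.90) and AT2G39670, a radical SAM protein (0.75 and 0.74). That equality rests on Col-0 replicate 3: without it the sco3 minus Col-0 differences were -0.88 at AT3G01720, 0.57 at AT3G56290 and 0.49 at AT2G39670, and AT3G56290 and AT2G39670 went under the threshold. The extensin-like locus AT3G54580 differed by -0.73 and -0.71. Leaving out Col-0 replicate 3 gave sco3 minus Col-0 differences of -0.83 at AT4G15390, -0.97 at AT5G04960 and -0.39 at AT3G54580, the last under the threshold.

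AT3G62040, of the HAD-type hydrolases, did not rest on that array. It had 6.44, 6.38 and 6.33 in sco3, against 7.50, 7.81 and 7.77 in Col-0, and 6.81, 6.87 and 6.52 in sco3phyb, against 7.73, 8.14 and 7.82 in phyb. Its differences were -1.31 and -1.17, and the first was -1.27 without Col-0 replicate 3. AT5G59490, of the same family, differed by -1.17 and -1.05, and the MYB-related locus AT5G05790 by -1.19 and -1.08. AT2G28780 (-1.05 and -1.88), AT5G24313 (-1.30 and -1.34), AT5G38700 (-1.27 and -1.13) and AT4G30670 (-1.43 and -1.03) have no role given here. Col-0 replicate 3 was the lowest Col-0 array at AT2G28780 and the highest at the other 3 loci, where sco3 minus Col-0 was -0.75 at AT5G24313, -0.65 at AT5G38700 and -0.88 at AT4G30670 without it.

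Root hair markers moved with the lower loci. Of the 3 root hair markers listed, 2 were measured, and both were lower on average in the sco3-carrying genotypes. Expansin EXPA7 (AT1G12560) had 5.22, 5.60 and 4.36 in sco3, against 5.81, 5.85 and 7.38 in Col-0, and 5.53, 5.41 and 5.46 in sco3phyb, against 6.63, 6.83 and 6.61 in phyb. Its average sco3 effect, the mean of sco3 and sco3phyb minus that of Col-0 and phyb, was -1.25 ± 0.26 (moderated SE, limma adjusted p = 0.00602). EXPA18 (AT1G62980) fell by 0.99 on that scale (SE 0.27, limma adjusted p = 0.0236), and its adjusted p was 0.0561 to 0.0645 without sco3 replicate 3, phyb replicate 2, sco3phyb replicate 2 or sco3phyb replicate 3. The range of EXPA7 was 4.36 to 5.60 in sco3 and sco3phyb and 5.81 to 7.38 in Col-0 and phyb. EXPA18 did not meet the numeric rule, since its sco3 and Col-0 arrays overlapped. Both sco3 minus Col-0 differences shrank without Col-0 replicate 3, from -1.29 to -0.77 at EXPA7 and from -1.03 to -0.48 at EXPA18, the latter under the threshold. Whether the share of root tissue had a part in the lower loci was not tested, and in whole seedlings fewer cells of a type and less RNA per cell cannot be told apart. No marker of photosynthetic cells, root, epidermis, vasculature, seed storage or flower was measured by a named probe set, and 0 of 3 measured stomatal lineage markers passed in limma, with 0 at an unadjusted p under 0.05.

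**Figure D4:**
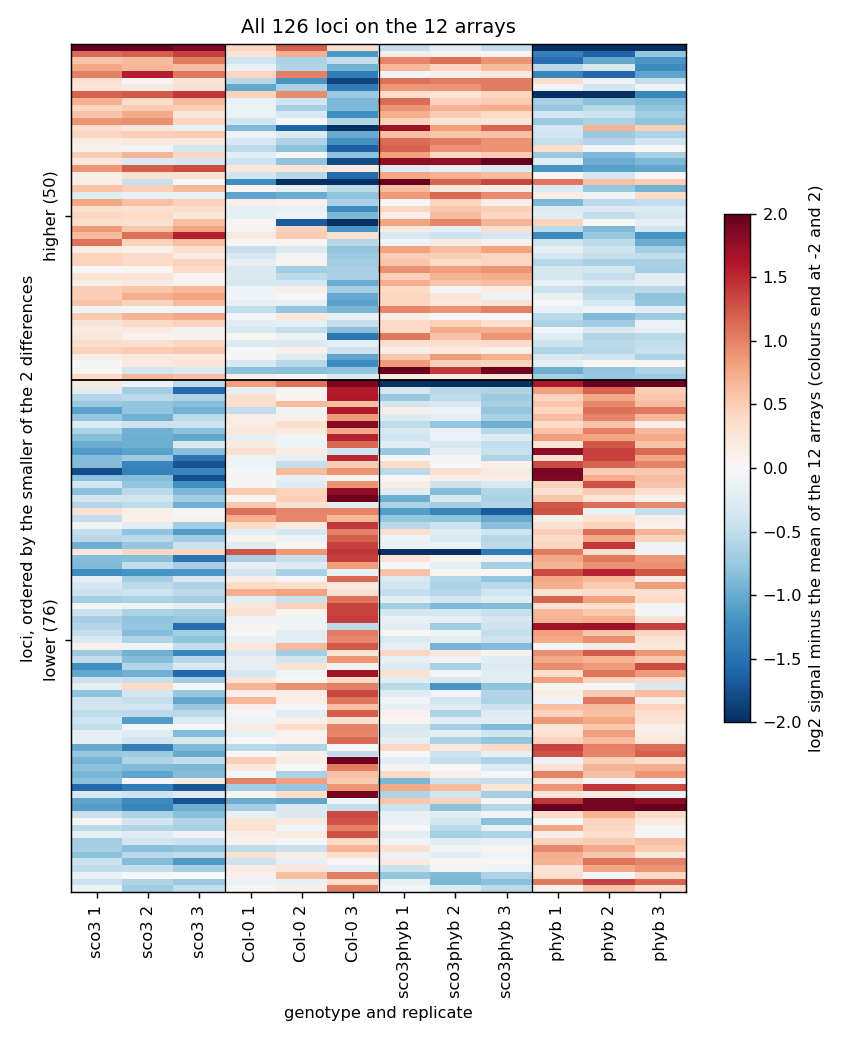
Log2 signal of the 126 loci (rows, in the order of the smaller of their differences) on the 12 arrays (columns, by genotype and replicate), as the difference from the mean of the 12 arrays, with colours ending at -2 and 2. The upper 50 rows are warmer in sco3 and sco3phyb and the lower 76 cooler there; the column of Col-0 replicate 3 is the most extreme of the Col-0 columns in most rows.

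A comparison that the rule did not use is the average phyb effect, the mean of phyb and sco3phyb minus that of Col-0 and sco3. It was tested with limma over all 22746 probe sets. With equal spread in the genotypes it is independent of both sco3 comparisons, but Col-0 had the larger spread here. Of the 126 loci, 73 (57.9%) were called, 51 higher and 22 lower in the phyb-carrying genotypes, where 44.7% of all probe sets were called. The share among the eligible probe sets was 40.7%. The excess over the whole array depended on the setting. Without the dimmest 40% of probe sets, 57.6% of the loci and 59.8% of all probe sets were called. With arrays shifted to a common median, the shares were 55.6% and 62.2%. The set is therefore not one without a phyb difference, and its loci are here described by the rule alone.

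The lower loci leaned towards higher levels in phyb-carrying seedlings. Of the 76, 33 were called higher, 9 lower and 34 not, with a median effect of 0.35, against a median of -0.06 over all probe sets. Of the 50 higher loci, 18 were called higher, 13 lower and 19 not, with a median of 0.02. The whole array gave 22.5% called higher and 22.2% lower. These splits depend on the array offset. After every array was shifted to a common median, 20 of the 76 were called higher and 14 lower, and 16 and 20 of the 50, while 15.7% of the whole array was higher and 46.5% lower. Without Col-0 replicate 3, 94 of the 126 were called, 66 higher and 28 lower. By direction these were 48 higher and 10 lower of the 76, and 18 and 18 of the 50. In that setting 49.0% of all probe sets were called, 24.2% higher and 24.8% lower.

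**Figure D5:**
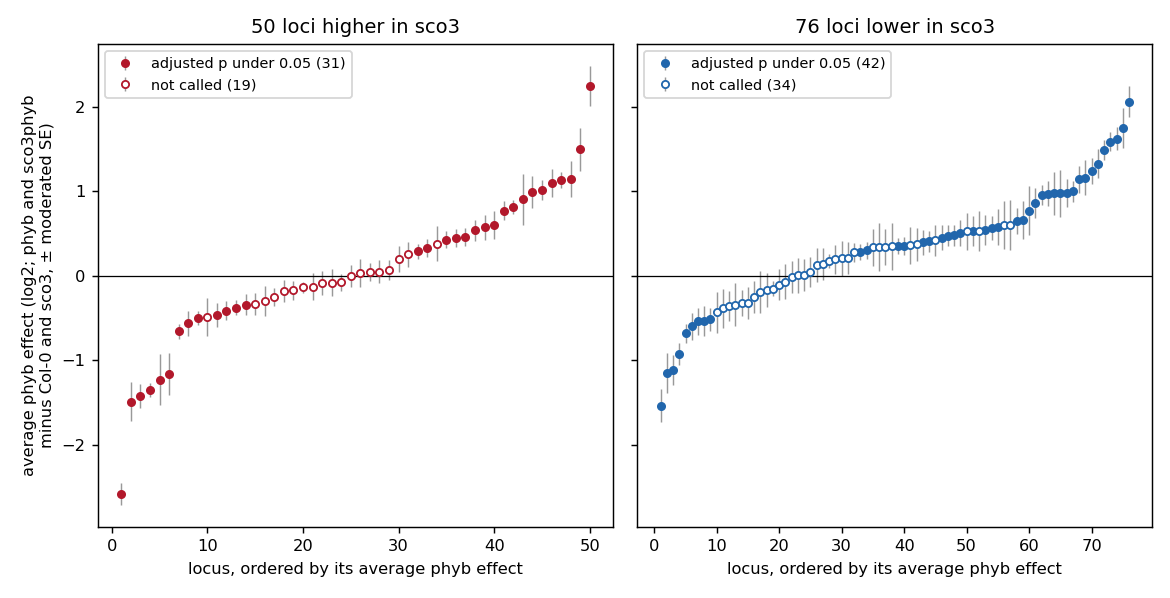
Average phyb effect (log2, phyb and sco3phyb minus Col-0 and sco3) of each locus, with its moderated SE, ordered by size, for the 50 higher loci (left) and the 76 lower loci (right). Filled points passed the limma test at an adjusted p under 0.05 (31 and 42 loci) and open points did not; the extremes are -2.58 at AT3G62950 and 2.24 at AT5G42760, both among the higher loci.

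The largest rise was at AT5G42760, described above, by 2.24 ± 0.24 (moderated SE, limma adjusted p = 8.13e-06). AT1G06000, a flavonol 7-O-rhamnosyltransferase that glycosylates flavonols, rose by 2.06 ± 0.18 (limma adjusted p = 1.62e-06). It had 6.53, 6.42 and 6.02 in sco3phyb and 7.40, 7.88 and 7.75 in phyb, against 4.91, 4.70 and 4.23 in sco3 and 4.97, 4.94 and 5.89 in Col-0. No array of a phyb-carrying genotype overlapped one with intact PHYB. Its sco3 minus Col-0 difference was -0.34 without Col-0 replicate 3, under the threshold, and that of AT3G54040 was -0.84, against -1.37 with it. AT3G54040, with no role given here, rose by 1.75, AT1G68600, an aluminium-activated malate transporter family member, by 1.62, AT5G42860 by 1.59 and AT1G68570 (NPF3.1, a transporter) by 1.50.

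The largest fall was at the glutaredoxin AT3G62950. AT3G62950 fell by 2.58 (SE 0.13, limma adjusted p = 1.65e-08), and the effects at AT4G15690, AT4G15700 and AT4G15680 were -1.49, -1.23 and -1.17, all called. The fourth locus of the run, AT4G15660, had a value of -0.49 (limma adjusted p = 0.0887). The CC-type family did not move one way: of its 17 measured genes, 7 were called higher, led by AT2G47880 at 2.75 and AT3G62960 at 2.36, and 7 lower in the phyb-carrying genotypes. With arrays shifted to a common median, 6 were called higher and 9 lower. So AT3G62950 and the loci of the run were higher with the sco3 mutation in each background, and all but AT4G15660 were called lower with the phyb mutation. AT5G26270, with no role given here, fell by 1.54, AT4G37220 fell by 1.43 and the MORN repeat locus AT2G35170 fell by 1.35. AT2G35170 had 4.92, 5.06 and 4.92 in sco3phyb and 4.04, 4.14 and 4.18 in phyb, against 6.11, 6.43 and 6.53 in sco3 and 5.45, 5.46 and 5.41 in Col-0. Its genotypes were tightly separated, and its sco3 differences, 0.92 and 0.85, were close to equal.

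How equal the sco3 differences were in the 2 backgrounds varied. For 73 loci they lay within 0.3 of each other, and for 10 they were unequal by at least 1, with a median inequality of 0.27. The rule took no account of this, and the inequality is not tested, since it uses the same arrays. After AT5G23830, the most unequal were AT1G68600 (-0.65 and -2.84) and the dehydrogenase AT1G09500 (0.61 and 2.60). AT1G68600 had 4.36, 3.96 and 4.22 in sco3phyb, against 7.52, 6.70 and 6.83 in phyb, and 3.69, 3.47 and 3.81 in sco3, against 4.11, 4.51 and 4.30 in Col-0. AT1G09500 had 5.02, 4.37 and 4.88 in sco3phyb, against 1.98, 2.16 and 2.34 in phyb, and 2.99, 2.58 and 2.69 in sco3, against 2.14, 2.12 and 2.16 in Col-0. For AT1G09500 the Col-0 and phyb arrays all lay below 2.69, the lower quartile of all signals. Of its sco3 arrays, those at 2.58 and 2.685 also lay below that quartile (2.686 to more digits). The sizes of the AT1G09500 differences are thus those of signals not shown to be above background. The level of both stood apart in 1 genotype, phyb for AT1G68600 and sco3phyb for AT1G09500.

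By genotype means, sco3phyb was highest at 31 of the 50 higher loci and sco3 at 19. Of the 76 lower loci, 54 had their lowest mean in sco3 and 22 in sco3phyb, and phyb was highest at 53 and Col-0 at 23. The sco3phyb mean lay within the range of the Col-0 arrays at 18 of the 76 lower loci and at 5 of the 50 higher loci, so at most loci the double mutant was not at the Col-0 level.

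The loci lay on all 5 chromosomes, with 32, 16, 21, 23 and 34 on chromosomes 1 to 5. By locus name, loci starting AT3G0 held 15 of 427 eligible probe sets (3.51%), against 1.05% of all other eligible probe sets. Loci starting AT3G3 to AT3G6 held 6 of 1099 (0.546%). The left-out stretch of AT3G1 and AT3G2, which holds SCO3 itself, met the numeric rule at 33 of 917 probe sets (3.6%). The AT3G0 stretch borders it, and linkage to SCO3 and the sco3 mutation itself cannot be told apart there. Neighbouring members were few: 23 loci had another within 5 eligible genes, in 17 pairs, of which 11 were of the same direction. AT5G43440 and AT5G43450, adjacent 2-oxoglutarate and Fe(II) oxygenases, were opposite: AT5G43440 was at -0.75 and -1.43, and AT5G43450 at 0.69 and 1.32.

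Higher and lower loci also differed from the eligible set in level. This is a description only, since the Col-0 values are among those that the rule used to choose the loci. The median level in Col-0 was 6.20 for the higher loci and 5.78 for the lower loci, against 3.88 over the eligible probe sets. RefSeq gene length had a median of 2463 bases for the higher loci and 1729.5 for the lower loci, against 2086 for the eligible loci. A single locus, AT1G20390, is annotated as a pseudogene.

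Lists of known chloroplast, peroxisome and light genes were examined for the average sco3 effect. None of their genes are among the 126, but list genes named by a symbol or in the left-out stretch could not be, whatever their values. The background for that effect was 17.6% of all probe sets called, 9.49% as higher and 8.07% as lower. Among 17 measured list genes 6 passed, 5 of them higher and 1 lower. Of the chloroplast RNA processing list, 3 of 6 measured genes rose: CAF1 (AT2G20020), a group II intron splicing factor, by 0.82 ± 0.14 (limma adjusted p = 0.00208), CRR28 (AT1G59720) by 0.59 ± 0.11 (limma adjusted p = 0.00374) and CRR21 by 0.78 ± 0.22 (limma adjusted p = 0.0261). CRR21 and CRR28 are RNA editing factors for NDH transcripts, and CRR21 had a limma adjusted p of 0.0524 to 0.0623 without sco3 replicate 1 or 2, phyb replicate 1 or 3, or sco3phyb replicate 2 or 3. CAF1 was higher by 0.79 in sco3 over Col-0 and by 0.86 in sco3phyb over phyb, so it met the numeric rule but is named by a symbol. CRR28 was higher by 0.95 and 0.24 in these comparisons and CRR21 by 1.09 and 0.47, and whether the sizes differ between the backgrounds was not tested. CRR21 was at 0.61 in sco3 over Col-0 without Col-0 replicate 3.

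In light signalling, 2 of 4 measured genes were called. The auxin response gene IAA29 (AT4G32280) fell by 0.98 (SE 0.22, limma adjusted p = 0.00835). It had 3.25, 3.38 and 3.33 in sco3, against 4.12, 4.89 and 4.16 in Col-0, and 5.08, 5.76 and 6.15 in sco3phyb, against 7.24, 6.19 and 6.26 in phyb. No arrays overlapped within either comparison. The differences of IAA29 were -1.07 and -0.90, so it met the numeric rule as lower but, like CAF1, is named by a symbol. The HY5 homologue HYH (AT3G17609), which lies in the left-out stretch, rose by 0.73 ± 0.17 (limma adjusted p = 0.00994), with 1.12 in sco3 over Col-0 and 0.34 in sco3phyb over phyb. Of 3 photorespiration genes, glycerate kinase GLYK (AT1G80380) rose by 0.41 ± 0.09 (limma adjusted p = 0.00726), with 0.24 and 0.59. None of 1 plastid transcription, 1 peroxisome and 2 beta-oxidation genes was called in limma for the average, with 0 at an unadjusted p under 0.05. On the beta-oxidation and glyoxylate cycle list, isocitrate lyase ICL (AT3G21720), which lies in the left-out stretch, differed in opposite directions. It was at 1.49 in sco3 over Col-0 and at -1.48 in sco3phyb over phyb, which leaves an average near 0. No gene of the import and cotyledon chloroplast lists was measured by a named probe set.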

How the data were processed

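Transcript levels on 12 ATH1 arrays were deposited by the authors as log2 expression values, made with RMA and Partek per the submitters' processing notes, for which no version is given in the sources used here. Of 22810 probe sets, 64 controls were left out. Members followed a numeric rule on group means, and 503 probe sets with several genes were left unnamed. A limma 3.58.1 model (R 4.3.3) with a mean per genotype and 8 residual degrees of freedom gave moderated, two-sided p-values adjusted by Benjamini-Hochberg over 22746 probe sets and called at 0.05; the fit was tested on simulated data. Tables and figures used python 3.11.15, pandas 2.3.3, numpy 2.4.6 and matplotlib 3.10.9. Loci, lengths and neighbours came from RefSeq's TAIR10.1 table, which matched all 126 loci.

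Members and lists were chosen with earlier results of these data known. Loci were named by a rule: the 12 largest in each direction by the smaller difference, up to 6 phyb calls each way, the 3 nearest the threshold on each side, the 3 most and 3 least equal, and up to 4 called genes per list. Family groups and their other loci were added after values were seen. Arrays give no read depth. Promoter motifs and protein lengths were not analysed here.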

Additional observations from a re-analysis of the deposited data

Results flagged for a closer look

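ICL (AT3G21720), isocitrate lyase of the glyoxylate cycle, is not one of the 126 loci and lies in the left-out stretch that holds SCO3. It moved in opposite directions in the 2 backgrounds with no overlap between arrays. It had 9.85, 9.76 and 10.24 in sco3, against 7.96, 8.07 and 9.35 in Col-0, a difference of 1.49. It had 7.77, 8.21 and 8.46 in sco3phyb, against 8.87, 9.94 and 10.07 in phyb, a difference of -1.48. The difference between the backgrounds was not tested.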

How the results depend on the processing

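The rule gave 193 loci at a difference of 0.5 and 24 at 1. With each array centred on its median it gave 132, 67 higher and 65 lower, with 115 of the 126 among them. After a further quantile normalization it gave 132, 56 higher and 76 lower, with 116 of the 126 among them. It gave 118 without the dimmest 40% of probe sets and 163 with overlap allowed. Leaving out single arrays gave 91 to 160 (76 to 125 of the 126 among them). With single arrays left out, phyb calls among the 126 ranged from 62 to 94 and over all probe sets from 9023 to 11142. Centring called 55.6% of members, 36 higher and 34 lower against 51 and 22, and 14154 of all probe sets (62.2%). Weighting arrays by their quality gave 90 members (71.4%) and 11606 probe sets (51.0%). Without the dimmest 40%, 68 of 118 members (57.6%) and 8166 of 13647 probe sets (59.8%) were called. Family counts under other settings were chosen after seeing the data: without Col-0 replicate 3, 2 glutaredoxins, 2 peroxidases and 4 dirigent genes met the rule, and 3 dirigent genes under centring and 3 under quantile normalization. Phyb calls in the CC-type glutaredoxins were 14, and 15 under centring and 14 without Col-0 replicate 3. The causes were not tested. Of 1071 single-gene alternatives over 60 results, 1022 kept their call, 19 gained and 30 lost it, and none reversed. Replicate numbers did not pair the arrays (3 of 18 same-number pairs correlated above 0.1, from -0.27 to 0.15), and 4 of 12 arrays correlated best with their own number. With a replicate block, 70 members, 9907 probe sets for phyb, 3755 for sco3 and 6 list genes were called, against 73, 10159, 3995 and 6. The values include no detection calls, so dim signals have no stated limit.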

Other observations

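Families with more than 1 locus in the set, picked after the values were seen, gave further differences. The FLZ-type zinc finger loci AT1G22160 and AT4G17670 were at -0.78 and -0.62 in sco3 minus Col-0 and at -2.03 and -1.82 in sco3phyb minus phyb. Of the GDSL esterases or lipases, AT4G18970 was at -0.90 and -1.74, and AT5G37690 at -0.87 and -0.77. The Sec14-like lipid transfer loci AT4G36640, AT1G22180 and AT1G01630 were at -0.82, -0.76 and -0.75 in sco3 minus Col-0 and at -1.13, -0.81 and -0.80 in sco3phyb minus phyb. Without Col-0 replicate 3, the sco3 minus Col-0 values of AT4G17670, AT4G36640 and AT1G22180 were -0.46, -0.47 and -0.38, under the threshold.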
